A study of Mus musculus with 12 samples.

Results

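The genes described here are 52 genes of mitosis and of the G2 to M transition of the cell cycle: mitotic cyclins and their kinase, the other mitotic kinases, the spindle checkpoint and the anaphase-promoting complex, kinetochore, spindle and cytokinesis proteins, and chromosome proteins. They were taken from a fixed list and found on the arrays through the platform annotation. A probe annotated to a single gene was found for 36 of the 52, among 6774 named genes in all. Foxm1, Aurka and H2afz were annotated only on probes shared by several genes and were not used. No probe of the arrays was annotated to the other 13, namely Ccnb1, Cdc20, Bub1, Cdca8, Kif2c, Prc1, Cdc25b, Ckap2, Smc2, Ncapd2, Ect2, Stmn1 and Hmgb2.

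The cells were mouse primary skin keratinocytes from the strain C57Bl/6NCr, 7 to 8 days after plating. They had received an adenovirus carrying deltaNp63alpha, the p63 form without the transactivation domain at its N terminus, or beta-galactosidase for the controls, and RNA was taken 41 h later. All cultures carried a virus, so no uninfected cells were compared. For 24 h the medium held 0.05 mM calcium (low calcium), which keeps keratinocytes basal-like, or 0.12 mM calcium (high calcium), a signal for differentiation. Each of 12 spotted cDNA arrays compared the RNA of deltaNp63alpha cells with that of beta-galactosidase cells at 1 calcium level. Each level had 3 repeats, and each repeat was hybridised on 2 arrays, one with the deltaNp63alpha RNA in Cy5 (forward) and one with it in Cy3 (reversed). The arrays are technical repeats by their labels, and the p-values here may then reflect only technical spread. No array set the calcium levels against each other.

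A cell that enters mitosis needs cyclin-dependent kinase 1 bound to cyclin A or cyclin B, then Polo-like and Aurora kinases to build the spindle and align the chromosomes. The spindle checkpoint holds the anaphase-promoting complex (APC/C), a ubiquitin ligase, inactive until every kinetochore is attached, and the APC/C then marks securin and the cyclins for destruction. Many of these genes are transcribed late in the cycle through a short promoter element called CHR, bound by the MuvB complex, and through CCAAT boxes, bound by NF-Y; in resting cells MuvB joins the repressive DREAM complex. In epidermis such transcripts come from dividing basal cells, and they decline when keratinocytes differentiate. In a bulk sample, fewer dividing cells and less of a transcript per dividing cell cannot be told apart.

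The promoters of 4 members are shown because they hold these elements and belong to genes with differing values. Ube2c had the lowest log2 ratio in high calcium (-1.06) and Kif11 the highest in low calcium (0.57). These ends come from different calcium levels: Kif11 was at 0.02 in high calcium, and Ube2c was not tested in low calcium. Cdk1 and Ccnb2 lay between -1.06 and 0.57 at both levels. Each promoter is the 250 bases before the annotated start, written 5′ to 3′ on the gene's own strand, from RefSeq on GRCm38.p6. Capitals mark the CHR (TTTGAA or TTTAAA), the CCAAT box (CCAAT) and the E2F site (TTTCGCGC or TTTGGCGC), each searched on both strands. Ube2c lies at chr2:164769679-164769928 (plus strand), Cdk1 at chr10:69352913-69353162 (minus), Ccnb2 at chr9:70421555-70421804 (minus) and Kif11 at chr19:37376132-37376381 (plus).
Ube2c: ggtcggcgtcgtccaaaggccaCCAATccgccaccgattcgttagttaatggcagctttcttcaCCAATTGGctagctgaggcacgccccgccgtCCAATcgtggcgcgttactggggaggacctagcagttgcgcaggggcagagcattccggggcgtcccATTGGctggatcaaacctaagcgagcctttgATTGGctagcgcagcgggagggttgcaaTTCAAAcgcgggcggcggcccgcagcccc
Cdk1: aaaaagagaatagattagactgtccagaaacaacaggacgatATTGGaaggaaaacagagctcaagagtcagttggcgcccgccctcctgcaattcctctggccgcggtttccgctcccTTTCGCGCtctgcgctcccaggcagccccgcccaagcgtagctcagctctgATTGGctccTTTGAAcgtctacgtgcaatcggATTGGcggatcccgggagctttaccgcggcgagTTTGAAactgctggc
Ccnb2: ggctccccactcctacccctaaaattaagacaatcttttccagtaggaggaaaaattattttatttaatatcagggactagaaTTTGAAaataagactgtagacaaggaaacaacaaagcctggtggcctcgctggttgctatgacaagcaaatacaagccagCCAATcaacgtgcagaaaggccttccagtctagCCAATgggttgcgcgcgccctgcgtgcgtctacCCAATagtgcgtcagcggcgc
Kif11: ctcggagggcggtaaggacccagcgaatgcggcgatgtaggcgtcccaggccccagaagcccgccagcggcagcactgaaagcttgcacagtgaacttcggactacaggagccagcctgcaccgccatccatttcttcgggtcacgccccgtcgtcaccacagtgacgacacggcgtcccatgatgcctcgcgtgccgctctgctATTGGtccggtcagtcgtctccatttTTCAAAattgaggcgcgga
Ube2c held 1 CHR, 29 bases before the start, and 6 CCAAT boxes, of which a pair on opposite strands overlapped. Cdk1 held 2 CHR, 3 CCAAT boxes and 1 E2F site, Ccnb2 held 1 CHR and 3 CCAAT boxes, and Kif11 held 1 CHR, 19 bases before the start, and 1 CCAAT box. Of the 29 members with a promoter in the RefSeq table, 14 held a CHR (48.3%, against 28.1% of the 27025 genes in the table). A CCAAT box was found in 22 of the 29 (75.9%, against 37.5%), both elements in 13 (44.8%, against 10.1%) and an E2F site in 1, Cdk1 (3.45%, against 0.759%). These are matches of letters, not measured sites.

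Of 9558 probes, 7869 to 9096 had a value on the 6 arrays of the first low calcium pair and of the pairs from high calcium repeats 1 and 2. The other 6 arrays had 3366 to 6974. These are also the 2 sets into which the labels' experiment numbers fall, and each set holds both calcium levels. Ratios carry no level, so cell types could be checked only through the ratios of their markers. Of 20 keratinocyte markers 13 had a probe. Of the 7 tested in low calcium 1 was above 0 (14.3%, against 53.5% of all rows). None passed there, and 2 had an unadjusted limma p under 0.05. Of the 11 tested in high calcium 4 were above 0 (36.4%, against 50.6%). In high calcium 2 genes of differentiated layers fell, against 0.84% of all rows called lower. They were Krt10 (log2 -1.57, limma adjusted p = 0.00821) and Flg (-1.93, limma adjusted p = 0.0351). Without high calcium repeat 3 Flg was at -1.07 (limma adjusted p = 0.0993). Both calls were lost with forward arrays alone, with reversed arrays alone, with lone arrays kept and with a trended and robust variance (limma adjusted p from 0.1 to 0.601 for Krt10 and from 0.145 to 0.653 for Flg), and with the deposited signs kept the values were -0.0269 and 0.29. None of the fibroblast, melanocyte, immune and endothelial markers tested (at most 6 per list in low calcium and 7 in high calcium) passed at either level, and 2 endothelial markers in low calcium had an unadjusted limma p under 0.05.

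For each repeat the value of a gene was the forward minus the reversed log2 ratio, divided by 2, called the pair value. It is positive where the RNA labelled deltaNp63alpha was higher, if the deposited ratio is Cy5 over Cy3. That direction is likely from the usual order of a dye ratio but is not settled: the files do not name the numerator, and deltaNp63alpha is labelled as the second channel on forward and reversed arrays alike. The targeted gene did not settle it. The single Trp63 probe read -0.98, -0.999, -0.77, 0.00 and -1.71 on forward arrays and 0.57, -1.91, 0.41 and 1.02 on reversed arrays, in low and then high calcium. The fitted log2 ratio, -0.16 ± 0.25 SE in low calcium (2 pairs, limma adjusted p = 0.919) and -0.55 ± 0.25 SE in high calcium (2 pairs, limma adjusted p = 0.446), lay on the lower side for the RNA labelled deltaNp63alpha. It is not known here if the transgene's RNA binds this probe. All signs given here would turn together if the ratio were Cy3 over Cy5 on every array. They would not if it were the second over the first labelled channel. The reversed ratios would then already be turned, and the kept-sign values given further below would apply. With kept signs 15 of 22 named values turned and 7 did not.

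A single member passed the test, Ube2c in high calcium. Ube2c encodes the ubiquitin-conjugating enzyme that starts ubiquitin chains on substrates of the APC/C. Its deposited ratio was -0.67 on the forward array and 1.02 on the reversed array of repeat 1, and -0.90 and 1.66 on those of repeat 2, so it changed sign with the dyes in both. The pair values were -0.85 and -1.28, and repeat 3 had no spot value. Ube2c was 2.09-fold lower with deltaNp63alpha (log2 -1.06 ± 0.20 SE, 95% interval -1.5015 to -0.62, limma adjusted p = 0.0335), with both of its pairs below 0 (n = 2 pairs). In low calcium the pair of repeat 1 read -0.43 forward and 0.50 reversed, a pair value of -0.47, and the forward array of repeat 2, which had no reversed partner, read 1.48. With a single pair Ube2c was not tested in low calcium. CHR and CCAAT letters, in differing numbers, also lie in the promoters shown for Kif11, Cdk1 and Ccnb2. Any link between these letters and the ratios was not tested.

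The call for Ube2c rests on 2 pairs of the well-filled set and was lost under 5 alternatives: with forward arrays alone (-0.79, limma adjusted p = 0.331), with reversed arrays alone (-1.34, limma adjusted p = 0.205), with arrays brought to 1 spread (-1.54, limma adjusted p = 0.0863), with a trended and robust variance (limma adjusted p = 0.415) and when the lone arrays of all rows were kept (log2 still -1.06, limma adjusted p = 0.787). Without high calcium repeat 1 or 2 it could not be tested, and with the deposited signs kept it was 0.27.

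**Figure D1:**
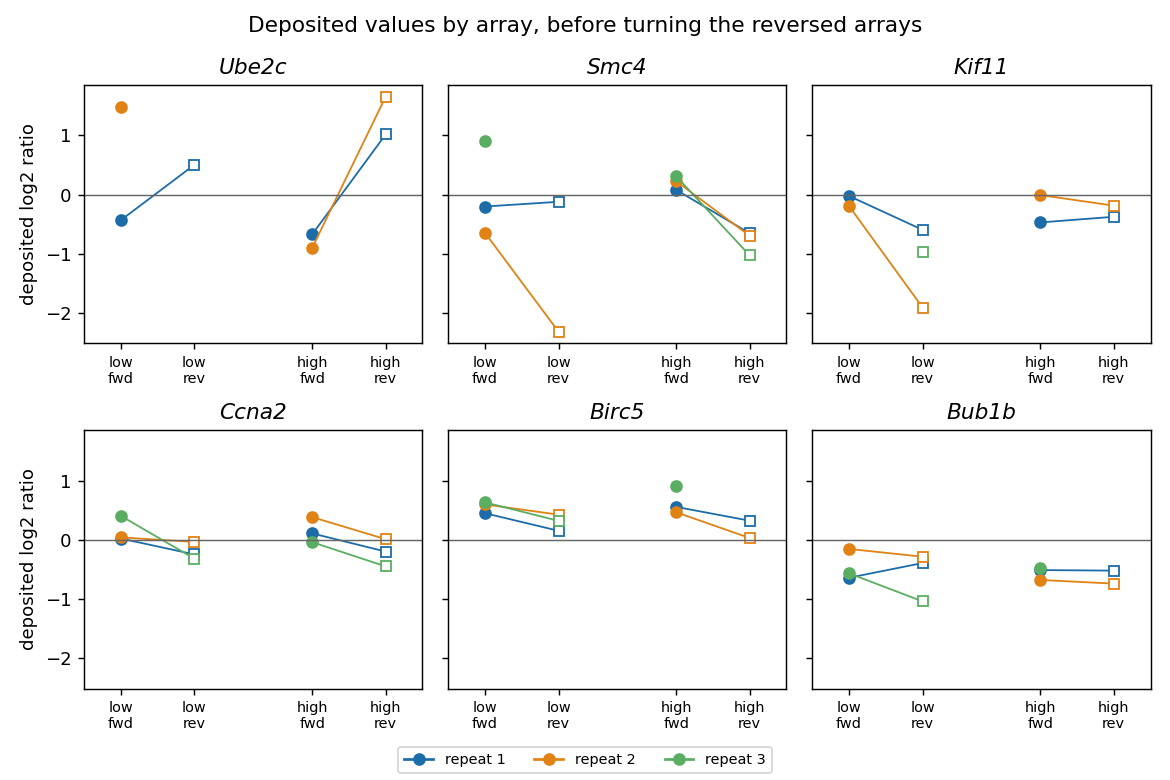
Deposited log2 ratio (vertical axis) on each array for Ube2c, Smc4, Kif11, Ccna2, Birc5 and Bub1b, before the reversed arrays were turned. Filled circles are forward and open squares reversed arrays, colours are repeats, and a line joins the 2 arrays of a pair. Ube2c in high calcium crosses 0 between orientations (-0.67 to 1.02 and -0.90 to 1.66), Birc5 stays above 0 on every array and Bub1b stays below 0.

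In low calcium 19 members had at least 2 complete pairs and could be tested, and none passed. Over all rows tested there, 0.387% were called lower and 0.0215% higher. By limma's unadjusted p under 0.05, 1 member was reached, Kif11, against 439 of 4646 rows. The members' log2 ratios ran from -0.13 (Ccnb2) to 0.57 (Kif11). Of the 19, 15 were above 0 (78.9%, against 53.5% of all rows), with a median of 0.13 against 0.02 over all rows. The 95% interval lay within 1 of 0, that is within a 2-fold change either way, for 18 of the 19, Kif11 being the exception, and within 0.5 for 5.

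In high calcium 32 members could be tested, 27 of them on 2 pairs. Ube2c was the 1 member called lower, against 0.84% of all rows, and 0 were called higher, against 0.551% of all rows. At an unadjusted limma p under 0.05, Smc4 joined Ube2c, against 842 of 7263 rows. Without Ube2c the log2 ratios ran from -0.30 (Kif20a) to 0.50 (Smc4), and 26 of the 32 lay within 0.25 of 0. Of the 32, 21 were above 0 (65.6%, against 50.6% of all rows), with a median of 0.09 against 0.01. The 95% interval lay within 1 of 0 for 30 members, Ube2c and Nek2 being the exceptions, and within 0.5 for 9. The value of Ube2c, -1.06, was the lowest and lay outside the interval of each of the other 31 members tested. Its own interval, up to -0.62, overlapped those of Kif20a (from -0.74), Cenpe (from -0.70), Nusap1 (from -0.68) and Mad2l1 (from -0.65). No test compared Ube2c with another member.

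**Figure D2:**
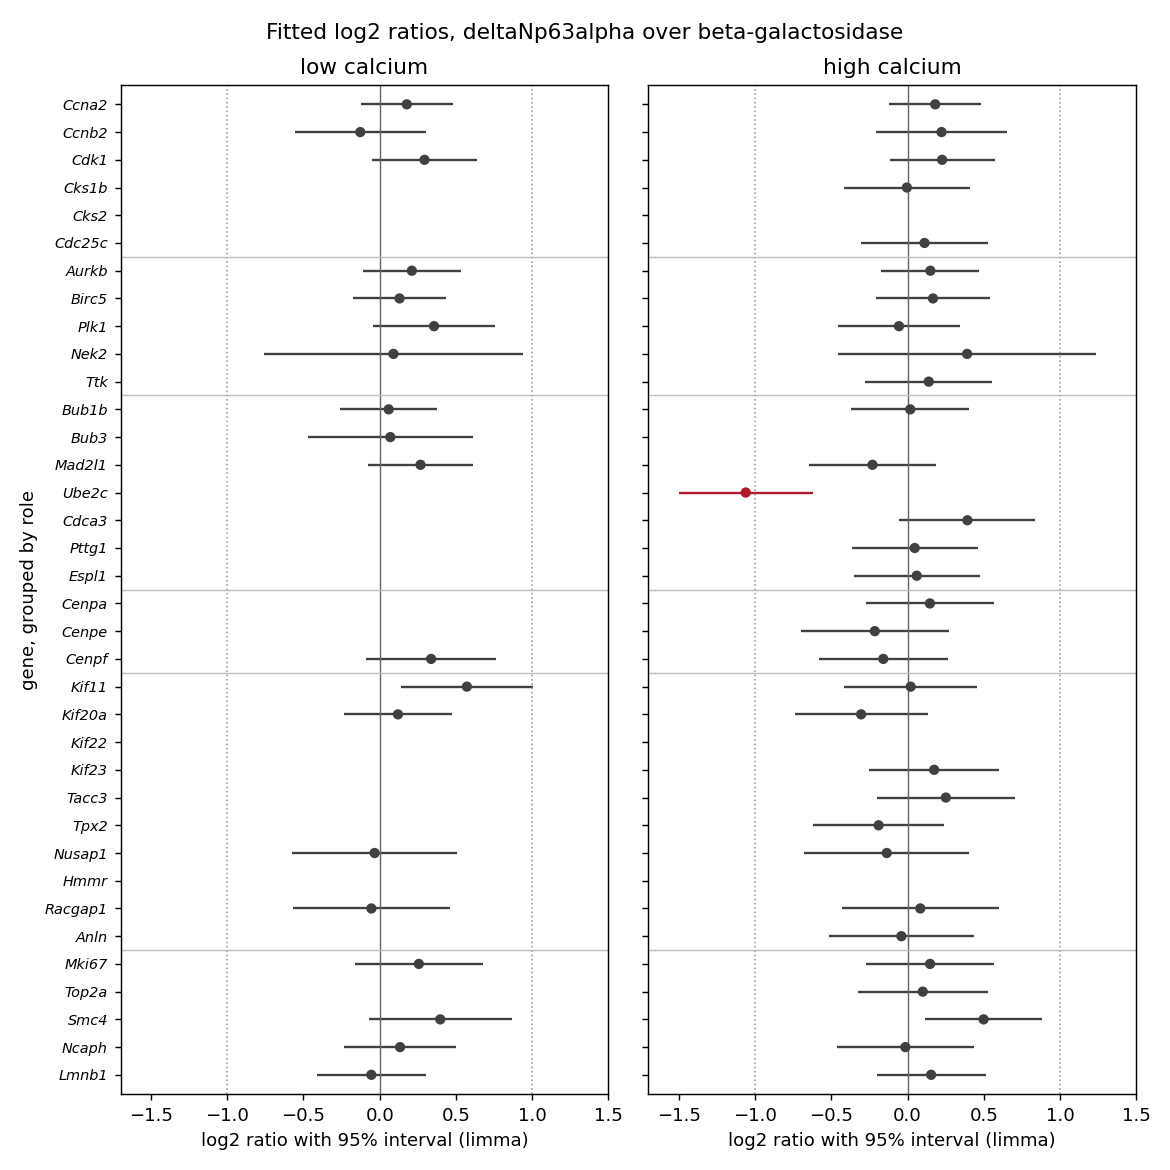
Fitted log2 ratio of deltaNp63alpha over beta-galactosidase (horizontal axis) with its 95% limma interval for each member tested, low calcium on the left and high calcium on the right, rows grouped by role. Dotted lines mark a 2-fold change, and rows without a point were not tested. Ube2c (red, -1.06) is the point whose adjusted p passed, and the other points lie between -0.30 and 0.57.

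Cyclins and the partners of cyclin-dependent kinase 1 were represented by 6 of 9 genes. None of 3 passed in low calcium (median log2 0.18) and none of 5 in high calcium (median log2 0.18). Ccna2, cyclin A2, was measured in all 6 pairs: 0.13, 0.04 and 0.36 in low calcium and 0.15, 0.19 and 0.20 in high calcium. All 6 pair values were above 0, yet the levels' log2 ratios of 0.18 ± 0.14 (SE, n = 3 pairs, limma adjusted p = 0.769) and 0.18 ± 0.14 (SE, n = 3 pairs, limma adjusted p = 0.718) did not pass. Its forward arrays read 0.02, 0.04 and 0.40 in low and 0.11, 0.38 and -0.04 in high calcium, and its reversed arrays -0.25, -0.04, -0.32, -0.20, 0.01 and -0.45.

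Cdk1, the kinase that drives entry into mitosis, gave pair values of 0.40, 0.03 and 0.46 in low calcium and -0.06, 0.18 and 0.56 in high calcium. Neither the low calcium log2 ratio of 0.29 (95% interval -0.05 to 0.64, limma adjusted p = 0.604) nor the high calcium one of 0.23 (-0.12 to 0.57, limma adjusted p = 0.687) passed. On the forward arrays it read 0.73, 0.39, 0.72, 0.27, 0.52 and 1.28, all above 0, and on the reversed arrays -0.07, 0.34, -0.19, 0.39, 0.16 and 0.16. The reversed arrays thus did not mirror the forward ones. Ccnb2, cyclin B2, had pair values of 0.15 and -0.40 in low calcium and 0.16 and 0.28 in high calcium. Cdc25c, the phosphatase that activates Cdk1, was at 0.11 and the Cdk1-binding Cks1b at -0.0044 in high calcium. Cks2, its paralog, had 1 pair at each level, -0.31 and -0.59, and was not tested.

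Of the mitotic kinases and the chromosomal passenger complex, 5 of 7 genes were on the arrays, and none of 4 passed in low calcium or of 5 in high calcium. Aurkb, the kinase of the passenger complex, read 0.30, 0.26 and 0.08 in the low calcium pairs and 0.31, 0.30 and -0.16 in high calcium. Its arrays of low calcium were 0.46, -0.17 and -0.20 forward and -0.14, -0.68 and -0.35 reversed, with 0.42, 0.37 and -0.54 forward and -0.20, -0.23 and -0.22 reversed in high calcium, giving log2 ratios of 0.21 in low and 0.15 in high calcium (limma adjusted p = 0.749 and 0.778). Birc5, survivin, which belongs to the same complex, was above 0 in 5 of 5 pairs: 0.15, 0.09, 0.16, 0.12 and 0.22. These small values had the smallest spread of any member tested in low calcium (SD 0.04), and the log2 ratios of 0.13 and 0.17 did not pass.

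Plk1, the Polo-like kinase of centrosomes and kinetochores, read 0.27 and 0.45 in its low calcium pairs and -0.16 and 0.05 in high calcium. In low calcium its paired arrays were 0.67 and 0.49 forward against 0.14 and -0.40 reversed, a lone forward array read 0.28, and the log2 ratio was 0.36 (limma adjusted p = 0.587). In high calcium it was -0.06. Ttk, the kinase that starts the spindle checkpoint, had pair values of 0.07, 0.09 and 0.19. Nek2, a kinase of centrosome separation, was the least repeatable member. Its pairs read 0.80 and -0.62 in low and -0.54 and 1.32 in high calcium, and its 95% interval in high calcium ran from -0.46 to 1.24.

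Of the spindle checkpoint and APC/C genes, 7 of 9 were on the arrays, and apart from Ube2c none of 3 passed in low calcium or of 5 in high calcium. Mad2l1, the checkpoint protein that binds the APC/C activator, had pair values of 0.04, 0.37 and 0.39 in low calcium and of 0.02 and -0.48 in high calcium. The difference between the levels did not pass for Mad2l1. Its forward arrays read -0.39, -0.54 and 0.30 in low and -0.31, -0.86 and, without a partner, -0.0765 in high calcium, and its reversed arrays -0.47, -1.29, -0.48, -0.34 and 0.10. Its log2 ratio was 0.27 in low and -0.23 in high calcium (limma adjusted p = 0.663 and 0.742). Bub1b, which encodes the checkpoint kinase BubR1, lay close to 0 (0.06 and 0.02), and its high calcium pairs of 0.00 and 0.03 had the smallest spread of any member tested at that level (SD 0.02).

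Bub3, the partner of BubR1, had low calcium pairs of -0.44 and 0.58 and 1 high calcium pair of -0.41. Pttg1, securin, which the APC/C destroys, was at 0.05 in high calcium and Espl1, separase, which securin holds inactive, at 0.06, each from 2 pairs above 0. Cdca3, the trigger of mitotic entry, was the highest of these genes in high calcium, with pairs at 0.64 and 0.15 (log2 0.39, 95% interval -0.05 to 0.84, limma adjusted p = 0.53). Its paired forward arrays there read 0.26 and -0.15 and its reversed arrays -1.02 and -0.45, and the lone forward array of repeat 3 read 0.90.

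The 3 kinetochore genes were all on the arrays, and none passed. Cenpf, a large coiled-coil kinetochore protein, read 0.15 and 0.52 in low and -0.33 and 0.02 in high calcium (log2 0.34 and -0.16, limma adjusted p = 0.649 and 0.816). All 10 arrays with a Cenpf value were below 0, from -0.04 to -1.09. Cenpa, the histone variant of centromeres, was at 0.15 in high calcium. Cenpe, the kinetochore motor, had 2 probes that differed: 1 gave 0.22, 0.34 and -0.89 and the other 0.15, -0.03 and -0.28 for repeat 1 of low and repeats 1 and 2 of high calcium. Both were lowest in high calcium repeat 2, and the mean of the 2 probes gave a high calcium log2 ratio of -0.21.

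Of the spindle and cytokinesis genes, 10 of 15 were on the arrays, and none of 4 passed in low calcium or of 8 in high calcium. Kif11, the motor that pushes spindle poles apart, had the highest ratio of the 19 members tested in low calcium, with pairs of 0.29 and 0.86 (log2 0.57 ± 0.20 SE, 95% interval 0.14 to 1.01, limma adjusted p = 0.338). Its arrays were -0.02 and -0.19 forward and -0.60 and -1.91 reversed, and the reversed array of repeat 3 alone read -0.96. The excess thus came from the reversed arrays: on these alone the log2 ratio was 1.16 (limma adjusted p = 0.0452) and on forward arrays alone -0.11. In high calcium Kif11 was at 0.02.

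Kif20a, a motor of the cytokinetic midzone, had pairs of 0.06, 0.43 and -0.13 in low and -0.07 and -0.54 in high calcium. Its paired high calcium arrays read -0.31 and -0.80 forward and -0.18 and 0.29 reversed, and a lone reversed array -1.03 (log2 -0.30, limma adjusted p = 0.662). Tacc3, a spindle microtubule protein, had high calcium pairs of 0.52 and -0.01, from 0.63 and -0.09 forward and -0.41 and -0.06 reversed (log2 0.25, limma adjusted p = 0.736). A lone reversed array read -0.74, and with lone arrays kept the log2 ratio was 0.41. Tpx2, the activator of Aurora A, was at -0.19 and Kif23, a motor of the central spindle, at 0.17. Their pair spread (SD 0.23 each) was larger than the value itself.

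Nusap1, a microtubule bundler, and Racgap1, which directs the contractile ring, had pairs of both signs at both levels: -0.51, 0.44, 0.19 and -0.47 for Nusap1 and 0.20, -0.31, -0.38 and 0.54 for Racgap1. Anln, the actin-binding anillin, had high calcium pairs of 0.30 and -0.38. Hmmr, a spindle-associated hyaluronan receptor, and the chromosome motor Kif22 had 1 pair at each level, -0.45 and 0.09 for Hmmr and -0.17 and 0.24 for Kif22, and were not tested.

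Of the chromosome and nuclear genes, 5 of 9 were on the arrays, and none of 4 passed in low calcium or of 5 in high calcium. Smc4, the ATPase core of condensin, had the highest ratio of the 32 members tested in high calcium: pairs of 0.37, 0.46 and 0.67, 3 of 3 above 0 (log2 0.50 ± 0.18 SE, 95% interval 0.12 to 0.88, n = 3 pairs, limma adjusted p = 0.232). Its forward arrays read 0.08, 0.23 and 0.31 and its reversed arrays -0.65, -0.70 and -1.03, so each pair changed sign with the dyes. In low calcium its pairs were -0.04 and 0.84, from -0.20 and -0.65 forward and -0.12 and -2.32 reversed, with 0.90 on a lone forward array (log2 0.40, limma adjusted p = 0.606). With arrays brought to 1 spread, the low calcium log2 ratio was 0.11. Ncaph, another condensin subunit, was at 0.13 and -0.01.

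Mki67, the proliferation marker Ki-67, which coats mitotic chromosomes, had pairs of 0.34 and 0.17 in low and -0.07 and 0.37 in high calcium. Its paired arrays read 0.96 and 0.92 forward and 0.28 and 0.58 reversed in low calcium, and 0.50 and 0.49 forward and 0.64 and -0.24 reversed in high calcium. Its log2 ratio was 0.26 in low and 0.15 in high calcium (limma adjusted p = 0.761 and 0.822). Top2a, the topoisomerase that untangles sister chromatids, had 1 low calcium pair of 0.58 and high calcium pairs of 0.26 and -0.06. Lmnb1, lamin B1 of the nuclear envelope, had pairs of 0.15, -0.49 and 0.17 in low and -0.08, 0.17 and 0.38 in high calcium, and all 12 of its arrays were above 0. The forward ones read 0.41, 0.36 and 0.76 in low and 0.27, 0.43 and 1.26 in high calcium, and the reversed ones 0.11, 1.34, 0.41, 0.43, 0.10 and 0.50.

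**Figure D3:**
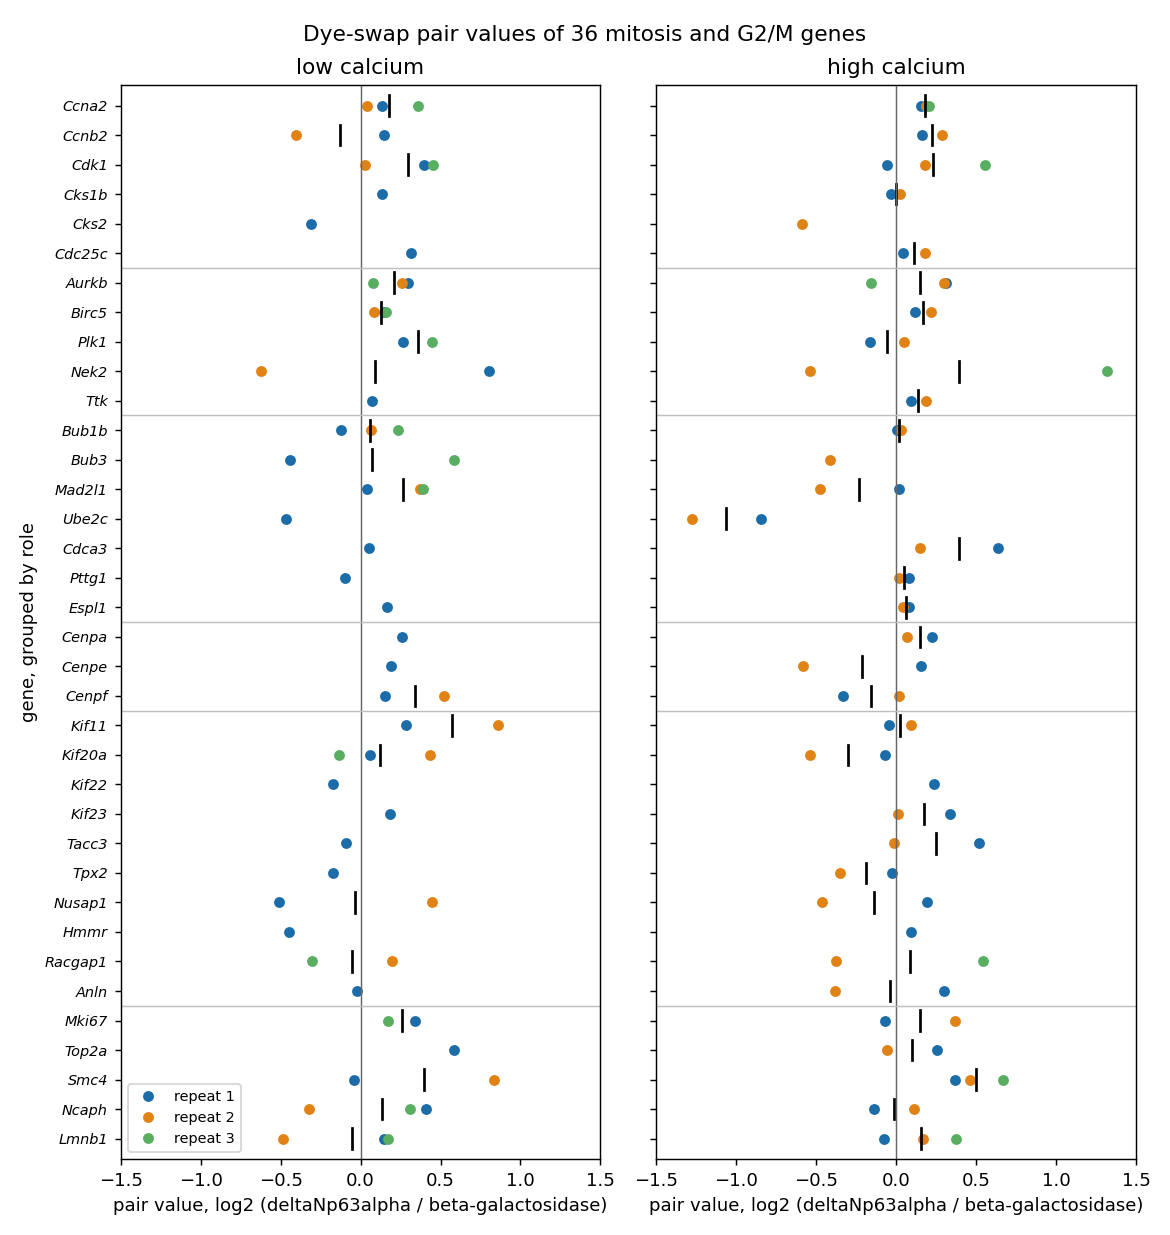
Pair values (horizontal axis, log2 of deltaNp63alpha over beta-galactosidase) of the 36 members, low calcium on the left and high calcium on the right, rows grouped by role. Points are repeats 1, 2 and 3 by colour and black ticks are means of 2 or 3 pairs. Both Ube2c points in high calcium (-0.85 and -1.28) are the lowest of that panel, and the widest spread is that of Nek2 (-0.54 to 1.32).

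Pair by pair, the share of measured members above 0 was 65.7% of 35, 75% of 16 and 84.6% of 13 in low calcium repeats 1 to 3, against 56.7%, 49.0% and 45.3% of all rows. In high calcium it was 65.6% of 32, 61.8% of 34 and 85.7% of 7, against 52.3%, 49.5% and 53.0%. The members' median lay between 0.03 (high calcium repeat 2) and 0.54 (high calcium repeat 3, 7 members). The sparsely filled pairs measured 7 to 16 members and the well-filled pairs 32 to 35, and the part of this filling in the shares was not tested. Same-signed values in every pair of a level were seen for 47.4% of the tested members in low calcium, against 35.4% of all rows, and for 46.9% in high calcium, against 57.0% of all rows.

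The difference between the calcium levels (the high minus the low log2 ratio) could be tested for 18 members. None passed in limma, against 0% of the 4209 rows tested, and 0 members but 107 rows had an unadjusted p under 0.05. The differences ran from -0.55 to 0.35, with 7 above and 11 below 0. The lowest were those of Kif11 (-0.55, 95% interval -1.17 to 0.06), Mad2l1 (-0.50, -1.04 to 0.04) and Cenpf (-0.50, -1.10 to 0.10), each with a limma adjusted p of 1. On the other side the smallest p belonged to Ccnb2 (0.35, -0.26 to 0.96), Lmnb1 (0.21, -0.30 to 0.71) and Nek2 (0.30, -0.90 to 1.501), also with a limma adjusted p of 1. For Ccnb2 the paired low calcium arrays were 0.40 and 0.09 forward against 0.10 and 0.89 reversed, and a lone forward array read 0.72. Lmnb1 turned to -0.01 without low calcium repeat 2, and Ube2c could not enter this test. The interval lay within 1 of 0 for 14 of 18 members, so differences of more than 2-fold between the levels were outside the interval for these but not for Kif11, Mad2l1, Cenpf and Nek2.

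Much of the members' deposited signal did not turn with the dyes. Over the 31 members with a value on at least 7 arrays, 12 had the same deposited sign on every array (38.7%, against 16.5% of 6445 rows). Birc5, Cdc25c, Cks1b, Ncaph, Pttg1 and Lmnb1 were above 0 throughout, and Bub1b, Cenpe, Cenpf, Kif11, Racgap1 and Espl1 below 0. The part shared by both orientations, (forward + reversed)/2, was larger in mean size than the pair value in 27 of the 36 (75%, against 70.6% of 8710 rows). The averages that follow keep their signs, so pairs of opposite sign cancel. For Racgap1 the shared part averaged -1.15 over 4 pairs and the pair value 0.01, with pairs from -0.38 to 0.54. For Lmnb1 they were 0.53 and 0.05 over 6 pairs, with pairs from -0.49 to 0.38. Ube2c had the opposite pattern, a shared part of 0.19 and a pair value of -0.86 over 3 pairs.

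If the deposited reversed ratios had already been turned by the submitters, the shared part would be the response. Under that kept-sign reading 9.86% of all rows were called lower and 6.56% higher in low calcium. Among them were 3 members: Cenpf (-0.74, limma adjusted p = 0.0465) and Racgap1 (-1.29) lower, and Ncaph (0.49) higher. In high calcium the same reading called 0 of 7263 rows and 0 of 32 members. Forward and reversed arrays as deposited correlated across genes with a median r of 0.44 in low calcium (0.15 to 0.71) and 0.26 in high calcium (0.02 to 0.53). These are correlations across genes within arrays, and genes are not independent replicates.

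**Figure D4:**
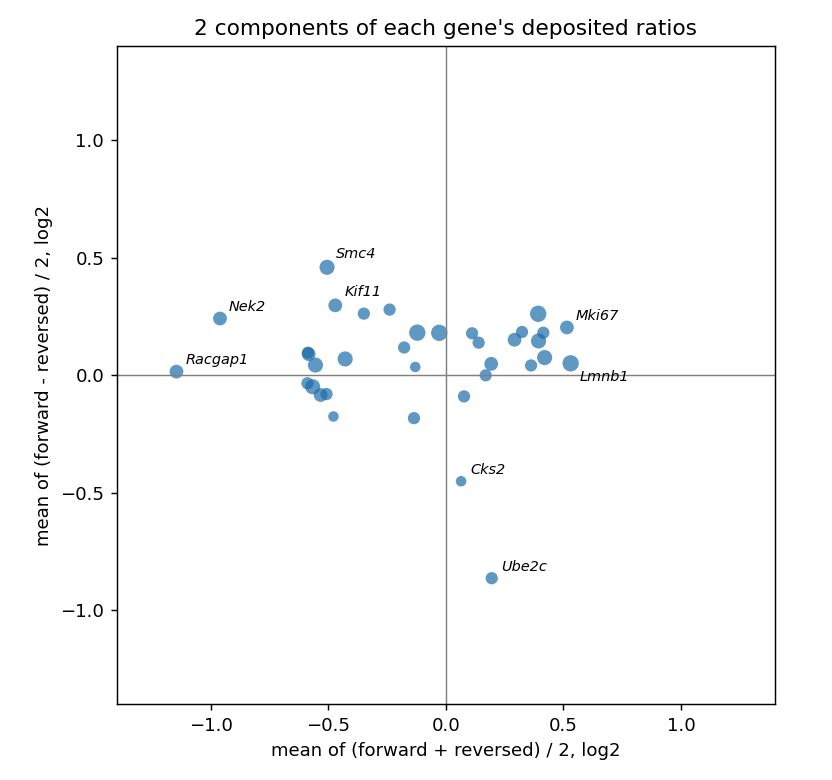
Mean of (forward - reversed)/2 (vertical axis, log2) against mean of (forward + reversed)/2 (horizontal axis, log2) for the 36 members over both calcium levels, with larger points for more pairs. Means are signed, so pairs of opposite sign cancel. Most points spread along the horizontal axis, from -1.15 (Racgap1) to 0.53 (Lmnb1), and Ube2c lies lowest on the vertical axis at -0.86.

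Other genes of the cell cycle were taken from lists that hold none of the members. Of the other spindle and kinetochore genes 22 were on the arrays, and none of 11 passed in low calcium or of 19 in high calcium (medians 0.04 and 0.00). Of the other APC/C and checkpoint genes none of 3 and none of 6 passed, of the other cohesin and condensin genes none of 8 and none of 10, and of the other G2 to M regulators none of 7 and none of 13. Of the genes of the G1 to S transition and of DNA replication none of 13 and none of 23 passed, with medians of 0.05 and 0.13. At an unadjusted limma p under 0.05 these 5 lists held 0, 1, 0, 2 and 2 genes in low calcium and 2, 1, 0, 4 and 3 in high calcium. Over all rows the counts were 439 of 4646 in low calcium and 842 of 7263 in high calcium.

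Of these other cell cycle lists, only that of the cyclin-dependent kinase inhibitors held called genes. In high calcium 2 of its 4 tested genes were called lower, against 0.84% of all rows. The list was chosen with earlier results of these data known. Cdkn1a, which encodes p21, read -0.57 and -1.33 forward and 1.51 and 1.75 reversed in high calcium repeats 1 and 2, so both pairs changed sign with the dyes, as those of Ube2c did. It fell with deltaNp63alpha (pairs -1.04 and -1.54, log2 -1.29 ± 0.20 SE, n = 2 pairs, limma adjusted p = 0.0102), although the lone forward array of repeat 3 read 1.17. In low calcium its pairs were -0.86 and -0.60 (log2 -0.73, limma adjusted p = 0.194). Cdkn2b, which encodes p15, had high calcium pairs of -0.84 and -1.05 and also fell (log2 -0.95 ± 0.19 SE, n = 2 pairs, limma adjusted p = 0.0387). The other 2 of the 4 inhibitors tested did not pass. Both falls, like that of Ube2c, stand on the same 2 high calcium pairs. With forward arrays alone Cdkn1a was at -0.24, with lone arrays kept at -0.47 and with the deposited signs kept at 0.34. Its call was also lost with reversed arrays alone, on 1 spread, with the array set as a block and with a trended and robust variance (limma adjusted p from 0.0863 to 0.906 over the settings that lost it). Cdkn2b was at -0.47 with reversed arrays alone and at -0.48 with the deposited signs kept. It lost its call under these and with forward arrays alone, on 1 spread, with lone arrays kept and with a trended and robust variance (limma adjusted p from 0.0863 to 0.653).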

How the data were processed

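Each of the 12 spotted arrays was deposited as log2 dye ratios per probe (log base taken from the range, -7.88 to 4.60; array medians -0.0005 to 0.0005). Per the labels' protocols, a Genisphere kit served for Cy3 and Cy5 labelling. How spots were scanned, background-corrected, normalised and filtered is not given in the sources used here. Precision is limited by the number of arrays.

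Of 9558 probes, 7457 carried 1 gene symbol, 481 several and 1620 none; 7368 symbols were updated by gene ID through a RefSeq table (GRCm38.p6). Probes of a gene were averaged, giving 8875 rows with the unnamed probes. Arrays were centred on their median, a pair value was (forward - reversed)/2, and a pair lacking 1 array was missing. All pairs of both levels were fitted together in limma 3.58.1 (R 4.3.3) with moderated variances (9.55 prior degrees of freedom, a median of 2 residual). A row was tested with at least 2 pairs per level and called at a Benjamini-Hochberg adjusted p under 0.05 over all rows. The procedure was tested on simulated pair values drawn independently, without a part shared by both orientations or unequal array spreads. That test therefore cannot show if calls in these data hold. Array values are given for members called, the 8 of smallest p per level, and those in all 6 pairs. For the difference between levels the 3 of smallest p in each direction are named, and array values added beside them or other members were chosen after their values were seen. The members and lists were chosen with earlier results of these data known. Alternatives covered orientation, lone arrays, scaling, variance model, array set, repeat number as a block, probes, missing pairs and left-out repeats.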

Additional observations from a re-analysis of the deposited data

How the results depend on the processing

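No member was called in low calcium except with signs kept as deposited (3) and with reversed arrays alone (1, Kif11 at 1.16). The single high calcium call became 0 with kept signs, with lone arrays kept, with forward or reversed arrays alone, with arrays on 1 spread and under a robust, trended variance. It was also 0 where Ube2c could not be tested, with the array set or the repeat number as a block, with all 3 pairs required and without high calcium repeat 1 or 2, and ranged from 0 to 1 with 1 repeat left out. With the lone arrays of all rows kept, the log2 ratio of Ube2c stayed at -1.06 with a standard error of 0.470 in place of 0.199. This setting added its lone low calcium forward array (1.48) beside the low calcium pair value of -0.47. Both levels share 1 variance per row in the fit. The part of this in the wider error was not tested.

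Over all rows, the 19 low calcium calls became 763 with kept signs, 0 with lone arrays kept, 33 with forward and 330 with reversed arrays alone, 0 on 1 spread, 0 with a trended and robust variance, 49 with each level fitted alone, 43 with the array set as a block and 42 with the replicate block, and 6 to 51 with 1 repeat left out (6 without low calcium repeat 1, 50, 51 and 30 without high calcium repeats 1, 2 and 3). The 101 high calcium calls became 0, 0, 0, 1, 14, 0, 236 and 35 in that order up to the array set, 26 with all 3 pairs required, and 33 to 151 with 1 repeat left out (33 without high calcium repeat 1, 34 without repeat 2). The difference between levels gave 1 row with the array set as a block, 2 with the replicate block and 0 to 1 with a repeat left out. The cause of these changes was not tested.

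With kept signs the following turned: in low calcium Kif11 (-0.68), Smc4 (-0.82), Cenpf (-0.74), Mad2l1 (-0.48) and Aurkb (-0.18), in high calcium Ube2c (0.27), Smc4 (-0.29), Cdca3 (-0.34) and Ccna2 (-0.0324), and among differences Mad2l1 (0.12), Kif11 (0.42), Cenpf (0.31), Ccnb2 (-0.36), Lmnb1 (-0.0684) and Nek2 (-0.30). With forward arrays alone Kif11 (-0.11), Cenpf (-0.40) and Mad2l1 (-0.21) turned in low calcium and the difference of Ccnb2 did (-0.0345). With reversed arrays alone Cdk1 (-0.027) and Mki67 (-0.43) turned in low calcium, and Kif20a (0.31), Cdk1 (-0.24) and Mad2l1 (0.12) in high calcium. Kif20a turned to 0.14 in high calcium with lone arrays kept, and the difference of Lmnb1 ran from -0.0057 to 0.3258 with a repeat left out. Of 304 values of named members under the alternatives, 272 kept direction and call, 26 turned, 5 lost and 1 gained a call. This count is no measure of stability. Only Ube2c in high calcium was called before, so the other values had no call to lose. Several settings could not move a value, such as leaving out a repeat of the other level. With kept signs 15 of 22 values turned.

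The deviations of same-numbered repeats of the levels correlated at -0.03, -0.11 and 0.20 over 1381 rows. Those of differently numbered repeats correlated at -0.29 to 0.27. These values cannot show if same-numbered repeats share cultures or a batch. Of the 14 named values that could be fitted with the replicate block, none of them called before, none was called, and Ube2c could not be fitted.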
